A study of Homo sapiens with 6 samples.

Results

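Mitochondrial ribosomal protein genes were taken as the rows whose symbol is MRPL or MRPS followed by a number and an optional A, B or C, in the expression tables of 6 RNA-seq libraries of C4-2B cells. All 6 libraries listed 76 such genes, of 13438 genes listed in all of them, and each of the 76 stood at 1 or more in at least 1 library of every vehicle and treated pair. MRPL57 was left out because only the XY011 table uses that symbol, and it is described with the partner subunits under its older name MRP63. By current knowledge of the structure, 49 of the 76 genes encode proteins of the large subunit, MRPS18A and MRPS30 among them despite their names, and 26 encode proteins of the small subunit. The remaining gene, MRPS36, is now assigned to the 2-oxoglutarate dehydrogenase complex.

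Mitochondria have their own ribosome, which makes the few proteins that mitochondrial DNA encodes, all of them subunits of the respiratory chain and ATP synthase. Its RNAs come from mitochondrial DNA, but every one of its proteins is encoded in the nucleus, made in the cytosol and imported, so that the subunits have to be supplied in matching amounts. Some of these proteins have a counterpart in bacterial ribosomes, and others were added during the evolution of mitochondria and mostly lie on the outside of the particle.

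C4-2B is an established human prostate cancer cell line of the LNCaP lineage. Cells were kept in medium whose serum was mainly charcoal-stripped, which removes steroid hormones, and were collected for RNA after 48 h. There were 3 experiments, each with 1 library from vehicle-treated cells and 1 from cells given SR2211 at 5 µM, XY011 at 5 µM or enzalutamide (ENZ) at 20 µM. SR2211 is an inverse agonist of a nuclear receptor, enzalutamide is a hormone therapy drug for prostate cancer, and XY011 is known here by its code name only. All 6 libraries share the line, the medium and the time of collection, and 1 line in 1 medium limits them as a model. Titles give the agents used here, whereas the extraction protocol of the first 2 experiments names XY018 in the place of XY011 and that of the ENZ experiment names SR2211. With 1 library per group no difference has a replicate check, and differences of 1 pair carry no p-value.

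Values were RPKM (reads per kilobase of gene, scaled to the number of mapped reads) in the SR2211 experiment and FPKM, the same measure in fragments, in the others, so levels of different genes are compared per length. Depth could be read back from the values of the SR2211 pair, at 8.20 M mapped reads for the vehicle and 8.16 M for SR2211, and is unknown for the other 4 libraries. Of 9 prostate luminal markers all were detected in all 6 libraries, with KLK3 at 1357, 1315 and 2484 in the 3 vehicles. Leukocyte markers were below 1 in all 6 libraries, with 1 of 3 listed in each table. In bulk RNA, fewer cells of a kind and less RNA per cell cannot be told apart. Luminal markers moved with the agents, 7 of 9 being below their vehicle in each pair. Of all genes tested, 54.4%, 57.7% and 52.3% were below it with SR2211, XY011 and ENZ. Of 5 stromal markers, 3 were listed in the first 2 tables and 5 in the ENZ table. Their sum went from 8.95 to 18 with SR2211, from 7.42 to 14.9 with XY011 and from 44.8 to 66.1 with ENZ. With ENZ, however, 2 of the 5 were below their vehicle and the median log2 change was 0.08. With SR2211 and XY011, 0 of the 3 were below it. Of 3 basal markers, KRT14 alone was listed in the first 2 tables, at 1.33 and 0.296 with SR2211 and at 3.02 and 0.8 with XY011, and in the ENZ table it stood at 3.39 and 1.53 beside KRT5 at 1.1 and 0.554. The part of these shifts in the results was not tested.

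To show what lies around the starts of genes that moved together, the promoters of the members were read from RefSeq (GRCh38.p14). It gave windows of 300 bases, 250 before and 50 after the start, for 68 of the 76 genes. Motifs were searched on both strands. The motif CCGGAAG, the core bound by ETS factors such as GABP, was present in 29 of the 68 genes, 42.6%, and in 16.5% of all protein-coding genes with a window. The YY1 core, whose letters stand in capitals in front of MRPL36 below on the opposite strand, was present in 10 genes, 14.7%, against 1.58% of coding genes, and it can overlap the ETS core. The short NRF1 core TGCGCA was found in 14 genes, 20.6% against 12.7%, and the full NRF1 core, which overlaps it in front of MRPL17, in 1 gene, 1.47% against 1.99%. CACGTG, the E-box, was found in 10 genes, 14.7% against 10.9%. Among all 35116 windows the shares were 10.3% for the ETS core, 0.849% for YY1, 8.24% for the short and 1.24% for the full NRF1 core, and 7.26% for the E-box. These matches are descriptions of letters and not of binding. Genes with the ETS core had a median log2 change of -0.38 with SR2211 and -0.57 with XY011, and those without it -0.37 and -0.57, so the medians with and without this motif were close. With XY011 they were further apart for the YY1 core (-0.25 with and -0.57 without), the E-box (-0.30 and -0.60) and the short NRF1 core (-0.62 and -0.46), and with SR2211 they were -0.42 and -0.38, -0.30 and -0.38, and -0.35 and -0.38. These groups of 10 to 14 genes were compared as a description. The 150 bases before the start are shown for 5 genes, 4 that were lower with SR2211 and XY011 and MRPS10, which was higher with both, with the motifs in capitals on the gene's strand. Labels name only motifs within these 150 bases, and matches elsewhere in the window, such as the YY1 core counted for MRPS10, are not shown.
MRPL17, chr11:6683341-6683490, minus strand, full and short NRF1 core: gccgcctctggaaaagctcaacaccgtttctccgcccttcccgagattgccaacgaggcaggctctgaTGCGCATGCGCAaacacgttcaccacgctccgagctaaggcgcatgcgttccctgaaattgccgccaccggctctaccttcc
MRPL18, chr6:159790317-159790466, plus strand, 1 of its 3 starts, ETS core: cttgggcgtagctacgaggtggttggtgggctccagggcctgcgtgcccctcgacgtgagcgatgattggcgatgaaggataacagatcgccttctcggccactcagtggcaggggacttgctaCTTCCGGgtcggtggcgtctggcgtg
MRPL32, chr7:42932226-42932375, plus strand, short NRF1 core: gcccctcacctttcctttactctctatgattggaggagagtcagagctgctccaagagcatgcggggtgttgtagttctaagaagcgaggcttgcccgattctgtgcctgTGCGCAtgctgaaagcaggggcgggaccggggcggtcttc
MRPL36, chr5:1799838-1799987, minus strand, short NRF1 core, E-box and YY1 core: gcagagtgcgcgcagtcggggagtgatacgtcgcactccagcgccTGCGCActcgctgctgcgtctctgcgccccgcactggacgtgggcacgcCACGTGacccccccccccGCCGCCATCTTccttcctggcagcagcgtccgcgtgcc
MRPS10, chr6:42217862-42218011, minus strand, ETS core: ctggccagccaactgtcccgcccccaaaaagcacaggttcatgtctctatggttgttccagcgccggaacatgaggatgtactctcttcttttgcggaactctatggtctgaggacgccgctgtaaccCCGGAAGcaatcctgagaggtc

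Although the products are built into 1 particle, the mRNA levels spanned a wide range. In the vehicle of the SR2211 experiment the members ran from 5.97 RPKM for MRPS24 to 214 for MRPL51, a ratio of 35.8, with a median of 48.6. The vehicle of the XY011 experiment ran from 7.19 FPKM for MRPL19 to 220 for MRPL37, and that of the ENZ experiment from 10.7 for MRPL30 to 340 for MRPL51. High members were partly the same, since MRPL3, MRPL37, MRPL51 and MRPS15 were among the 5 highest in both of the first 2 vehicles. Across the 76 members the Spearman correlation of vehicle levels was 0.85 between the SR2211 and XY011 experiments, 0.52 between SR2211 and ENZ and 0.36 between XY011 and ENZ. MRPS24, a small subunit protein with a bacterial counterpart, stood at 5.97, 55.6 and 210 in the 3 vehicles. The same line and condition thus gave levels that differed between tables, and each change is taken within its own table.

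With SR2211 most mitochondrial ribosomal protein mRNAs were lower than in the vehicle, by a modest amount each. The median log2 change, with 1 added to each value, was -0.38 (quartiles -0.60 and -0.18) against -0.07 over all 12154 genes tested, and 67 of 76 members were below 0 (54.4% of all genes). At 1.5-fold, 20 members were lower (17.2% of all genes were) and 0 were higher (13.8% of all genes). At 2-fold, 1 was lower (5.75% of all genes) and 0 were higher (5.1%). The members' share of the summed level of all shared genes went from 1.04% to 0.795%. The shift was therefore made of many small differences in 1 direction rather than of a few large ones.

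The gene with the largest decrease was MRPL18, the counterpart of the bacterial protein that binds 5S ribosomal RNA, at 82.8 RPKM in the vehicle and 38.1 with SR2211. MRPL27, whose bacterial counterpart reaches into the peptidyl transferase centre, stood at 40.9 and 21.4. MRPL4, which lines the exit tunnel for the new chain, stood at 60.7 and 33.4. All 3 are large subunit proteins with a bacterial counterpart, and their log2 changes were -1.10, -0.90 and -0.84. MRPL17 followed at 46.9 and 25.7, MRPL23 at 59.5 and 33.0 and MRPL32, which is cut to its mature form by the m-AAA protease inside mitochondria, at 70.2 and 40.1. These, too, belong to the large subunit. At the other end, MRPS35, a small subunit protein found only in mitochondrial ribosomes, stood at 73.0 and 109, a log2 change of 0.58 that lies just under the 1.5-fold limit. MRPS10, in the head of the small subunit, stood at 27.0 and 34.4.

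Because RPKM is a read number scaled by gene length and depth, whole reads could be recovered for all 76 members in this pair, with a median of 388.5 reads in the vehicle and a range from 7 for MRPS24 to 2389 for MRPL3. They are the smallest whole numbers that give a whole length, so the true ones may be 2 or more times as large. Implied lengths began at 79 bases for MRPL41, with 129 for MRPL12 and 143 for MRPS24, too short for whole mRNAs. Read numbers of such members are therefore too low and their intervals too wide. Some intervals that include 1 might not do so with the true numbers. The exact 95% intervals for the treated to vehicle ratio then lay wholly below 1 for 53 members (35.6% of all genes with reads), wholly above 1 for 2 members (27.9%) and included 1 for 21. For MRPL18 the reads were 675 and 309, a ratio of 0.460 (0.401 to 0.527). MRPS35 had 1148 and 1714 reads (1.5, 1.39 to 1.62) and MRPS10 479 and 609 (1.28, 1.13 to 1.44), and these were the 2 members above 1. MRPS6, at 200 and 218 reads, had an interval of 0.900 to 1.33, and that of MRPS24, at 7 and 6 reads, ran from 0.239 to 2.99. No difference was detectable there at these read numbers, which for MRPS24 are too low. These intervals cover counting error alone and say nothing of the spread between cultures.

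**Figure D1:**
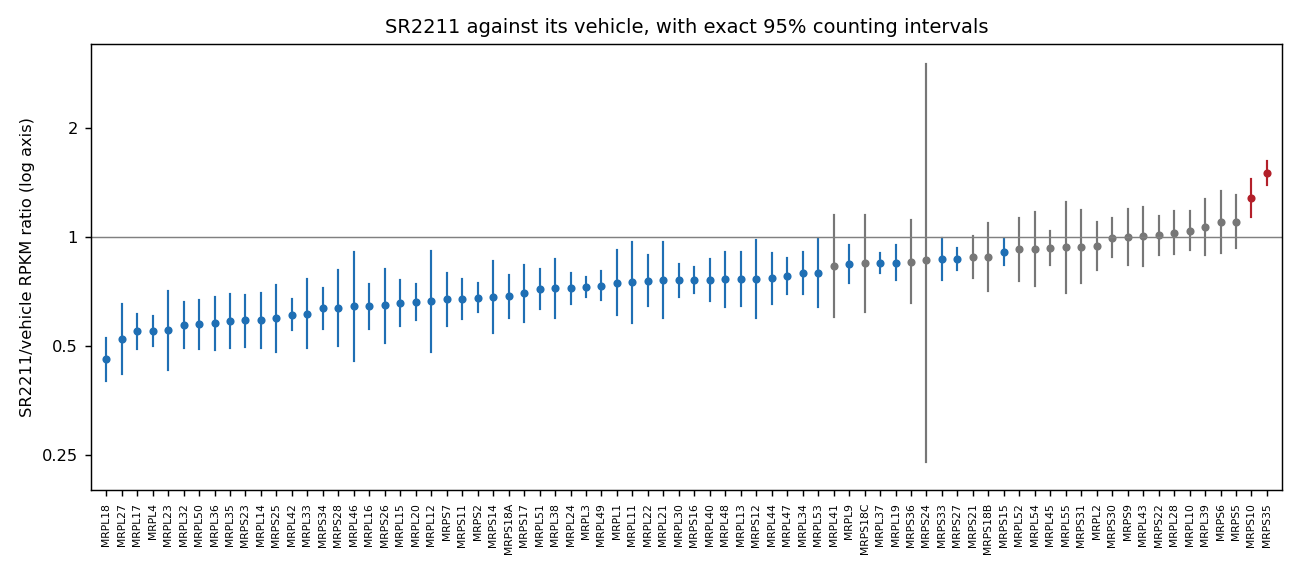
Ratio of the RPKM with SR2211 to that of its vehicle for the 76 members (log axis), ordered by ratio, with exact 95% intervals from recovered reads that cover counting error only. The 53 members whose interval lies below 1 are blue, the 2 above 1, MRPS10 and MRPS35, are red, and the 21 whose interval includes 1 are grey. Intervals are too wide where the recovered reads are too few.

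With XY011, at the same dose and time, most members were again lower, and the median difference was larger. The median log2 change was -0.57 (quartiles -0.85 and -0.15) against -0.14 over all 12617 genes tested, and 66 of 76 members were below 0 (57.7% of all genes). At 2-fold, 11 members were lower (13.2% of all genes) and 0 were higher (7.59%). At 1.5-fold, 36 were lower (27.8%) and 0 were higher (17%). The members' share of the summed level went from 0.981% to 0.695%. The members thus stood apart from the background in their direction and in the 1.5-fold count of lower genes, while the 2-fold count of lower genes was near it.

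MRPL1, the protein of the L1 stalk beside the exit site for tRNA, was the lowest with XY011 at 17.7 FPKM in the vehicle and 5.76 after treatment, a log2 change of -1.47. MRPL18 stood at 86.1 and 33.3 (-1.34) and MRPL23 at 25.9 and 9.63 (-1.34). MRPL32 stood at 68.8 and 29.8, MRPL17 at 50.5 and 22.1 and MRPL16 at 59.8 and 29.3. MRPL17, MRPL18, MRPL23 and MRPL32 were thus among the 7 lowest with both agents. In the small subunit, MRPS17 stood at 58.7 and 22.8 (-1.33), MRPS6 at 27.3 and 11.1 (-1.22) and MRPS12, the counterpart of the bacterial decoding centre protein S12, at 30.6 and 13.5 (-1.12). MRPS33 stood at 102 and 48.2 and MRPS11 at 61.2 and 28.8. Those 5 small subunit genes were all less reduced with SR2211, where their log2 changes lay between -0.56 for MRPS11 and 0.13 for MRPS6. Higher with XY011 were MRPL10, the base of the stalk that binds translation factors, at 40.5 and 57.1 (0.48) and MRPS30 at 36.5 and 50.4 (0.45), both under 1.5-fold.

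Grouped by place and origin, the lower values with SR2211 and XY011 were deepest among large subunit proteins that have a bacterial counterpart. In these 30 genes the median log2 change was -0.46 with SR2211 and -0.76 with XY011, and 12 and 19 of them were lower at 1.5-fold, where 17.2% and 27.8% of all genes were. The 19 large subunit proteins found only in mitochondria had medians of -0.36 and -0.30, with 3 and 7 lower at 1.5-fold. Among small subunit proteins with a bacterial counterpart (16 genes) the medians were -0.30 and -0.27, with 1 and 7 lower at 1.5-fold. The 10 found only in mitochondria had medians of -0.20 and -0.28, with 4 and 3. In those 3 groups several counts, such as 3 of 19 and 1 of 16 with SR2211 and 3 of 10 with XY011, were near or below the share of all genes. Every group thus had a median below that of all genes with both agents. The 4 medians lay closer together with ENZ, between -0.15 and -0.27. There the large subunit genes with a bacterial counterpart were the least lowered group, at -0.15.

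**Figure D2:**
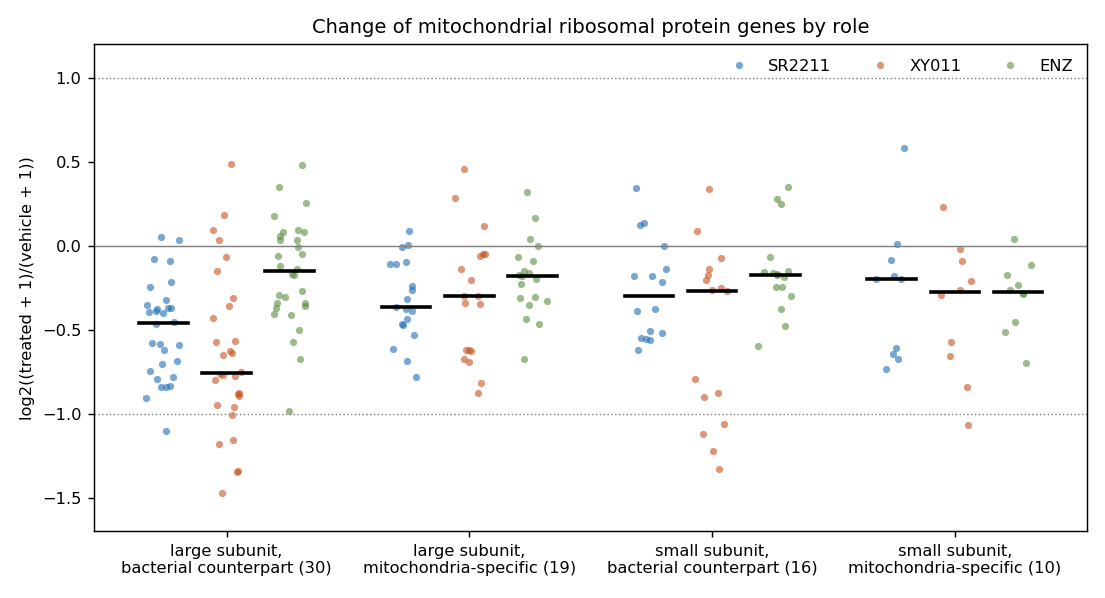
Log2 change of each member against its own vehicle (y axis, 1 added to each value) by place in the ribosome and origin, with the number of genes in brackets. Points are genes, coloured by agent, bars are medians and dotted lines mark 2-fold. The large subunit genes with a bacterial counterpart have the lowest medians with SR2211 (-0.46) and XY011 (-0.76), and the highest with ENZ (-0.15).

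Within the large subunit, the 4 proteins of the stalk that recruits translation factors did not move as a block. MRPL12, which forms the mobile arms of the stalk, stood at 95.5 RPKM in the vehicle and 63.6 with SR2211 and at 67.4 and 45.2 FPKM with XY011. MRPL11 stood at 31.3 and 23.5, and at 37.1 and 21.5. MRPL53 stood at 35.9 and 28.6, and at 22 and 21.0. MRPL10, to which the arms attach, stood at 32.9 and 34.1, and at 40.5 and 57.1, so 1 of the 4 was above its vehicle in both pairs. Around the tunnel exit, 8 genes had medians of -0.37 and -0.62, with MRPL17 and MRPL23 the lowest and MRPL39 (0.09 with SR2211) and MRPL45 (0.12 with XY011) above 0 in 1 pair each.

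The 3 MRPS18 paralogs are related to the same bacterial protein, whose site MRPS18C takes, while MRPS18A and MRPS18B sit elsewhere and are grouped above with the proteins found only in mitochondria. They had different levels and changes. MRPS18A, in the large subunit, stood at 53.7 RPKM and 36.8 with SR2211, at 78.3 FPKM and 50.6 with XY011 and at 85.1 and 53.0 with ENZ. MRPS18B stood at 59.4 and 52.3, at 90.8 and 89.8 and at 12.2 and 8.27. MRPS18C stood at 10.3 and 8.74, at 16.8 and 14.5 and at 63.4 and 75.5. Only MRPS18A of the 3 was lower by a log2 value of more than 0.50 in all 3 pairs, at -0.53, -0.62 and -0.67.

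Set side by side, SR2211 and XY011 shared part of their pattern over the members. Each pair has its own vehicle. Across the 76 members the Spearman correlation of the 2 sets of log2 changes was 0.51, and across 11188 genes tested in all 3 experiments it was 0.77. These are descriptions over genes, which are not independent, and the narrow range of the members limits the first. At 1.5-fold, 14 members were lower with both (18.4%, against 13.7% of all genes): MRPL4, MRPL14, MRPL16, MRPL17, MRPL18, MRPL20, MRPL23, MRPL32, MRPL33, MRPL36, MRPL42, MRPL46, MRPL50 and MRPS25. Of these, 13 belong to the large subunit, which holds 49 of the 76 members. MRPL36, among them, stood at 78.3 and 45.2 with SR2211 and at 100 and 58.5 with XY011. The decrease was larger with XY011 for 44 of the 76.

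The members that differed most between the agents were MRPS6 and MRPL1. MRPS6 stood at 24 RPKM in the vehicle and 26.3 with SR2211 but at 27.3 and 11.1 FPKM with XY011, a log2 difference of -1.35 between the changes. MRPL1 stood at 19.4 and 14.5 with SR2211, a difference of -1.08 from its change with XY011. MRPS33 (-0.87), MRPL28 (-0.84) and MRPS17 (-0.82) were likewise lower with XY011. In the opposite direction MRPL27, which stood at 42.1 and 40.2 with XY011, differed by 0.84, and MRPS26 by 0.52. These differences between agents were not tested, since each rests on 4 libraries with 1 per group. MRPS6 overlaps SLC5A3 in RefSeq and MRPL1 an uncharacterised locus, and how reads of overlapping genes were assigned is not given in the sources used here.

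**Figure D3:**
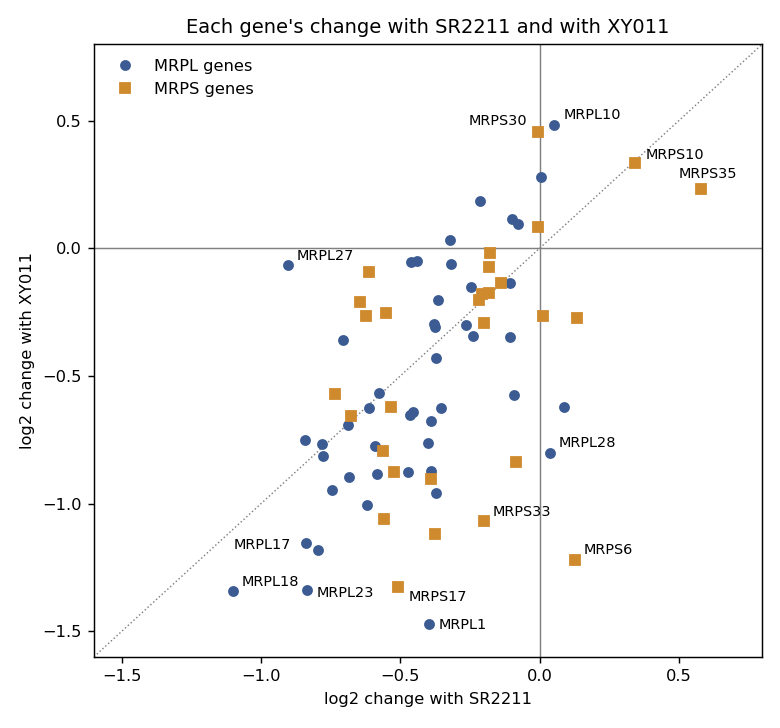
Log2 change of each member with SR2211 (x axis) and with XY011 (y axis), each against its own vehicle, for MRPL genes (circles) and MRPS genes (squares). The dotted line marks equal change, and most points lie at the lower left, with MRPL18, MRPL17 and MRPL23 low on both axes and MRPS6 and MRPL1 low with XY011 mainly.

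The 2 agents were also fitted as a class with limma across 11977 genes, where the spread between them and that borrowed across genes is the error (1 residual degree of freedom). The fit treats different compounds as replicates. With limma and Benjamini-Hochberg adjustment over all genes, 14 of the 76 members fell (18.4%, against 13.7% of all genes) and 0 rose (9.38% of all genes). At an unadjusted p under 0.05, 35 were lower (23.8% of all genes) and 0 higher (16.2%). The median class change was -0.45 against -0.09 over all genes, and 68 of 76 were negative. Of the 14, 10 were among the 30 large subunit genes with a bacterial counterpart and 2 among the 19 found only in mitochondria. The other 2 were among the 26 small subunit genes. Only the first group was above the 13.7% of all genes that fell. MRPL18 had the largest decrease, with a class change of -1.22 on the log2 scale (SE 0.20, limma adjusted p = 0.0123), being lower with both agents. MRPL23 fell by 1.09 (adjusted p = 0.0200, limma), MRPL17 by 1.00 (0.0209) and MRPL32 by 0.99 (0.0228). The others that fell were MRPL4, MRPL14, MRPL15, MRPL16, MRPL33, MRPL36, MRPL42, MRPL50, MRPS11 and MRPS17, by 0.69 to 0.92. MRPL1, at -0.93, did not pass (limma adjusted p = 0.0597), and neither did the positive values of MRPS35 (0.41, limma adjusted p = 0.187), MRPS10 (0.34, limma adjusted p = 0.234) and MRPL10 (0.27, limma adjusted p = 0.375). With 0.1 in place of 1 added to the values, limma called 0 members and 0 of all genes, and 23 members were lower at an unadjusted p under 0.05.

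With ENZ the members stood closer to their vehicle. The median log2 change was -0.18 (quartiles -0.34 and -0.03) against -0.02 over all 19259 genes tested, and 59 of 76 members were below 0 (52.3% of all genes). At 2-fold, 0 members were lower (4.68% of all genes) and 0 were higher (3.69%). At 1.5-fold, 5 were lower (12.4%) and 0 were higher (11.6%), and the members' share of the summed level went from 1.06% to 0.986%. The 5 were MRPL30 at 10.7 and 4.93 FPKM (-0.98), MRPS35 at 116 and 71.3, MRPS18A at 85.1 and 53.0, MRPL18 at 103 and 64.0 and MRPS12 at 139 and 91.6. MRPL18 was thus past 1.5-fold in all 3 pairs, while MRPS35, the highest member with SR2211, was the second lowest with ENZ. The highest with ENZ were MRPL24, which overlaps HDGF in RefSeq, at 146 and 204 (0.48), MRPS9 at 22 and 28.3 and MRPL1 at 31.9 and 40.9, the last being the lowest member with XY011. The Spearman correlation of the changes with ENZ was 0.15 with those of SR2211 and 0.09 with those of XY011 over the 76 members, against 0.42 and 0.37 over all genes. Whether the effect of ENZ differs from that of the others was not tested.

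Over the 3 experiments, 50 of the 76 members were below their vehicle each time, 65.8% against 31.3% of the 11188 genes tested in all 3. Above their vehicle each time were MRPL10, MRPL43 and MRPS10, 3.95% against 22.6%. MRPS10 stood at 27.0 and 34.4, at 28.7 and 36.5 and at 11 and 13.6, log2 changes of 0.34, 0.33 and 0.28. Those 3 values are close together, although none reaches 1.5-fold. MRPL43 stood at 13.0 and 13.1, at 18.7 and 23.0 and at 54.4 and 56.1, and it overlaps SEMA4G in RefSeq. Among members at high level, MRPL51 stood at 214 and 154, at 166 and 90.1 and at 340 and 340, MRPL3 at 164 and 119, at 181 and 116 and at 204 and 218, and MRPL37 at 181 and 154, at 220 and 173 and at 176 and 158. These 3 were thus lower with SR2211 and XY011, while MRPS15, also at high level, changed by -0.14 with each. Among the 5 lowest in the vehicle of the SR2211 experiment, MRPS25 was lower, at -0.68 and -0.66. MRPS24, MRPS18C, MRPL19 and MRPS36 lay between -0.22 and -0.18 with SR2211 and between -0.20 and 0.18 with XY011.

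Other parts of the mitochondrial gene expression system were read from lists of known function. The 7 ribosomal subunits that carry other symbols had median log2 changes of -0.50 with SR2211, -0.67 with XY011 and -0.18 with ENZ, near those of the members. DAP3, a GTP-binding small subunit protein, was above its vehicle in both pairs, at 64.4 and 98.5 with SR2211 and 78.0 and 97.1 with XY011. MRP63 stood at 69.8 and 49.3 with SR2211 and, under the symbol MRPL57, at 66.01 and 32.85 with XY011. Mitochondrial translation factors (14 genes) had medians of -0.14, -0.58 and -0.01, and the elongation factor TUFM was at 111 and 120 with SR2211. Of these 14, 1 passed the class fit, a share below the 13.7% of all genes that fell in it. It was MTRF1L, a release factor, with a decrease of 0.86 (limma adjusted p = 0.0292).

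The 23 assembly factors had medians of -0.28, -0.30 and -0.07, and 3 of them, FTSJ2, RNMTL1 and MPV17L2, fell in the class fit, a share near the 13.7% of all genes that fell in it. FTSJ2 (MRM2), a methyltransferase of the large ribosomal RNA, stood at 32.1 and 15.7 with SR2211 and at 29.7 and 12.9 with XY011. MRM1, another methyltransferase of that RNA, stood at 5.88 and 2.13 with XY011, and MPV17L2 at 36.4 and 16.5. The 17 tRNA synthetases had medians of -0.22, -0.37 and 0.11, and 3 fell in the class fit, which is also near that 13.7%. LARS2 stood at 17 and 8.39 with SR2211 and at 15.7 and 5.19 with XY011, and MARS2 at 13.9 and 6.79 and at 11.4 and 3.61. CARS2 was lower in all 3 pairs, at 23.9 and 15.0, 19.0 and 7.88, and 87.3 and 38.1. These 3 enzymes, which load mitochondrial tRNAs with leucine, methionine and cysteine, were the ones that passed.

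Among the mitochondrial lists the 17 genes of transcription and RNA processing had the lowest median with ENZ (-0.36), while with SR2211 (-0.49) and XY011 (-0.62) they were close to those of the partner subunits. Of these genes 5 of 17 fell in the class fit (13.7% of all genes). TFAM, which packages mitochondrial DNA and starts its transcription, stood at 21.1 and 10.9 with SR2211, at 16.8 and 5.81 with XY011 and at 39.0 and 27.0 with ENZ. FASTKD5, needed to process mitochondrial mRNAs, stood at 16.7 and 6.69, at 15.3 and 5.28 and at 10.8 and 7.02. TRMT10C, a subunit of the enzyme that cuts tRNAs out of the precursor, stood at 25.2 and 11.2 with SR2211 and 27.2 and 11.7 with XY011. MTERF and HSD17B10 were the others that fell. LRPPRC, which stabilises mitochondrial mRNAs, went the other way, at 42 and 60.3 and at 37.9 and 48.2.

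Mitochondrial chaperones and proteases (11 genes) had medians of 0.04 with SR2211 and -0.06 with XY011, above those of the members, and of -0.14 with ENZ, close to the members' -0.18. LONP1, the Lon protease, stood at 56.1 and 126 with SR2211 and at 34.2 and 73.0 with XY011. HSPA9, the matrix Hsp70, stood at 132 and 273 and at 125 and 212. HSPE1, the co-chaperonin, was lower at 89.2 and 43.4 and at 183 and 58.8. All 3 passed the class fit. LONP1 and HSPA9 rose by 1.11 and 0.90 and HSPE1 fell by 1.32 (limma adjusted p = 0.0139, 0.0266 and 0.0135). Of the 11 genes, 2 thus rose and 1 fell, where 9.38% and 13.7% of all genes did. The genes for factors that control mitochondrial biogenesis, NRF1, GABPA, YY1 and ESRRA among them, had medians of -0.10, -0.08 and -0.16. None of the 7 fitted passed the class fit, in which 13.7% of all genes fell and 9.38% rose. The smallest limma adjusted p was 0.308 for NRF1, which was higher with both agents.

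For comparison, cytosolic ribosomal protein genes had medians above 0 with SR2211 (0.24, 82 genes tested) and XY011 (0.37, 82), and of 0.03 with ENZ, where 36 of 84 were below 0. Nuclear genes for respiratory chain subunits (75 tested in each pair) had medians of -0.15, -0.23 and -0.07, between the members and all genes. With SR2211 and XY011 the 2 ribosomes of the cell thus had medians of opposite sign, and their levels summed to 0.767 and 0.717 of the vehicle for the mitochondrial and 1.19 and 1.31 for the cytosolic genes. These are descriptions of 1 library per group.

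**Figure D4:**
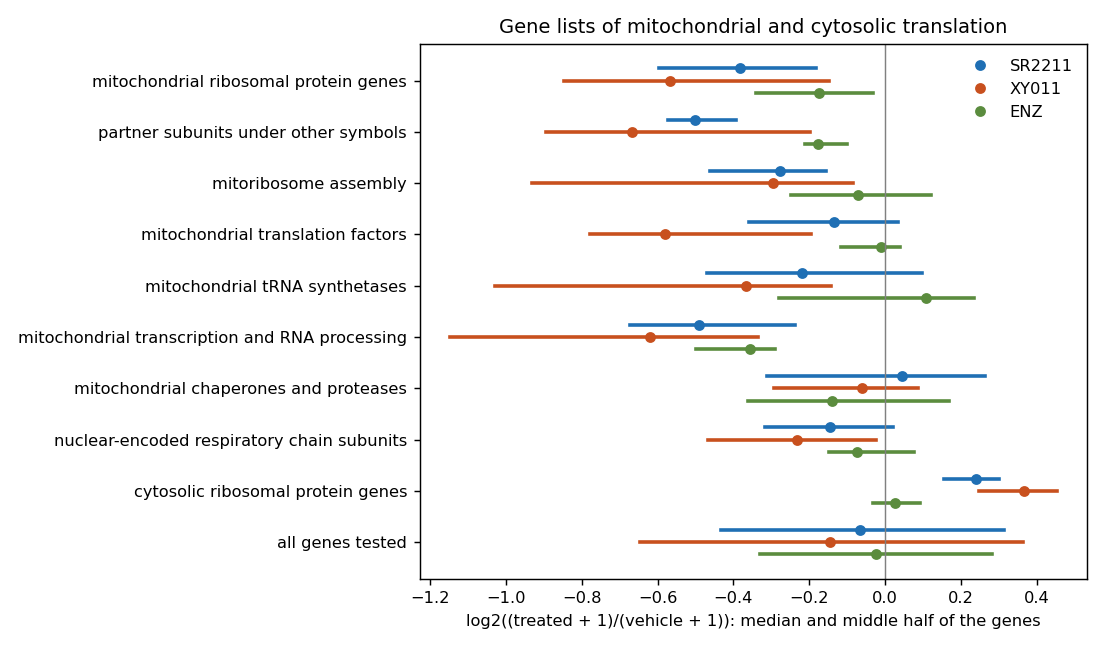
Median log2 change (points) and range from the lower to the upper quartile (lines) of each gene list against its own vehicle, coloured by agent. The mitochondrial ribosomal protein genes have medians of -0.38, -0.57 and -0.18 with SR2211, XY011 and ENZ, and cytosolic ribosomal protein genes 0.24, 0.37 and 0.03.

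Some members cannot be separated from other transcripts. In RefSeq 32 of the 76 overlap another gene, such as MRPL23, which overlaps MRPL23-AS1 and H19, and MRPS24, which overlaps the URGCP-MRPS24 readthrough. For 41 members there are pseudogenes named for them, 98 in all, and how reads that match a gene and its pseudogene were treated is not given in the sources used here. MRPL18 and MRPL17 have neither in RefSeq. Levels of 5 members, MRPL21, MRPL23, MRPS12, MRPS24 and MRPS34, differed by 2-fold or more between the vehicles of the SR2211 and XY011 experiments, and of 16 by 1.5-fold or more.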

How the data were processed

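RNA-seq values of 6 C4-2B libraries were used, 1 per group. The authors deposited RPKM for the SR2211 pair and FPKM for the XY011 and ENZ pairs, per the file headers. GRCh37, hg19, BWA, Bowtie, Cufflinks and Cuffdiff stand in the submitters' processing notes. No source used here gives versions, strand or the tool behind each table. Antisense partners therefore cannot be told apart. Libraries were poly(A)-selected, per the labels' protocols. Absent genes stood at 0.01, 0.001 and 0 in the tables of SR2211, XY011 and ENZ. MRPS17 filled more than 1 line of the ENZ table (0.874 and 27.5 in the vehicle, 1.74 and 23.3 with ENZ) and these were summed.

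Members and lists were chosen with earlier results of these data known. A gene was tested where 1 library of its pair stood at 1 or above, changes are log2((treated + 1)/(vehicle + 1)), and calls were made at 2-fold and 1.5-fold. Members named are, in each pair, the 6 lowest and 6 highest, all past 2-fold, the MRPS18 paralogs, the stalk proteins and the 5 highest and 5 lowest in the SR2211 vehicle, 40 in all. MRPL14, MRPL20, MRPL28, MRPL33, MRPL36, MRPL42, MRPL45, MRPL46, MRPL50, MRPS26, DAP3, MRP63, TUFM, MTRF1L, RNMTL1, NRF1 and LRPPRC were named after their values were seen. From other lists, genes past 2-fold were named, at most 3 in each direction. In the vehicle of the SR2211 experiment 17 of 17 microRNA genes, and with SR2211 25 of 26, gave whole reads within 0.01 at the depths given, and 474 of 2867 low genes gave the relative depth, 0.996. Implied lengths were whole within 0.002 bases. The limma fit (version 3.58.1, R 4.3.3) used log2(value + 1) with experiment, class and ENZ terms, prior values of 5.41 (degrees of freedom) and 0.209 (SD), and Benjamini-Hochberg adjustment at 0.05. Its p-values rest on the spread between the SR2211 and XY011 responses, from different compounds and experiments, and on that borrowed across genes. They do not measure the spread between cultures given the same compound. Whether libraries were separate cultures is not stated. The code was tested on simulated data.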

Additional observations from a re-analysis of the deposited data

How the results depend on the processing

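No paired analysis was possible because each group has 1 library and replicate numbers pair nothing, while the limma class fit already holds the experiment as a term. The median change over all genes was -0.07 with SR2211, -0.14 with XY011 and -0.02 with ENZ, and centring each pair on it left 7 members lower at 2-fold with XY011 in place of 11. At 1.5-fold, centring made 1 member higher with SR2211 and 2 with XY011. Quantile scaling gave 0 members lower at 2-fold and 13 at 1.5-fold with SR2211, 7 lower at 2-fold with XY011, and 1 and 2 higher at 1.5-fold. With ENZ, adding 0.1 or 0.01 gave 1 member lower at 2-fold in each case. In the limma class fit the 14 members that fell became 0 with 0.1 added, 5 with quantile scaling and 34 with the trend option. The cause was not tested. The class change of MRPL19 (-0.01) was 0.078 with centring and 0.065 with quantile scaling, that of MRPS5 (-0.07) was 0.024 and 0.091, and that of MRPS18B (-0.10) was 0.052 with quantile scaling. From the SR2211 experiment or the XY011 experiment alone, without a test, MRPL19 ranged from -0.21 to 0.18, MRPL39 from -0.62 to 0.086, MRPS5 from -0.27 to 0.13, MRPS6 from -1.22 to 0.13, MRPS9 from -0.0045 to 0.084 and MRPS30 from -0.0071 to 0.45. For the other 34 of the 40 members named by rule both experiments gave the same sign as the class change. Among members named after their values were seen, signs were opposite for MRPL28 (0.04 with SR2211, -0.80 with XY011) and MRPL45 (-0.10 and 0.12).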

Other observations

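The ENZ table alone also listed pseudogenes named for members, 33 in all, of which 31 stood at 1 or more in either library. Their median log2 change was -0.20, with 9 lower and 1 higher at 1.5-fold. MRPS5P3 was at 135 FPKM in the vehicle and 62.8 with ENZ, above its parent gene MRPS5, which was at 37.9 and 31.9. MRPS21P1 stood at 18.8 and 2.81. Because the sequences of such copies are close to those of their parents, the reads counted for each are uncertain.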
